A study of Mus musculus with 8 samples.

Results

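Spi1, Irf8, Gfi1, Gfi1b and Klf4 encode transcription factors that set the balance between the macrophage, granulocyte, erythroid and megakaryocyte fates. The accessible chromatin around these 5 genes was described in bone marrow progenitors with and without Xist. Members were found by position. Every ATAC-seq peak overlapping a gene body extended by 70 kb on both sides was taken, with gene models from GENCODE M21 on mm10. The windows held 473 of the 501728 peaks in the 8 libraries. Peaks that overlapped by at least 1 bp were joined across libraries, and the windows then held 107 of the 123260 regions on the autosomes and the X chromosome. Of these, 23 lay at Spi1, 28 at Irf8, 20 at Gfi1, 25 at Gfi1b and 11 at Klf4.

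ATAC-seq marks open chromatin by the insertion of sequencing adapters by the Tn5 transposase. The sorted populations were LSK+ cells (Lin-, Sca-1+, c-Kit+), which contain the hematopoietic stem cells, and LSK- cells (Lin-, Sca-1-, c-Kit+), which are myeloid progenitors. They came from female mice aged 4.5 months of the 129Sv4/Jae x B6 background, either WT or XistΔ/Δ, and about 10000 cells entered each reaction. The 4 groups, LSK+ WT, LSK+ XistΔ/Δ, LSK- WT and LSK- XistΔ/Δ, held 2 libraries each. In XistΔ/Δ mice both floxed Xist alleles were removed by Vav-iCre, a transgene that is active throughout the blood system and not in LSK cells alone. The authors describe the 2 libraries of a group as biological replicates. How many animals stood behind a library was not given in the sources used here, and the spread between libraries may be partly technical.

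PU.1, the product of Spi1, is an ETS-family factor required for macrophages, granulocytes and B cells, and IRF8 joins it on DNA to favour monocytes and dendritic cells over granulocytes. GFI1 is a zinc-finger repressor of neutrophil precursors, and its close relative GFI1B acts in erythroid cells and megakaryocytes. Both repress through KDM1A (LSD1) and RCOR1 (CoREST). KLF4 is a zinc-finger activator of the monocyte programme. Several of these genes are controlled by distant enhancers, and Spi1 in particular depends on an upstream regulatory element that binds RUNX1, C/EBP factors and PU.1 itself.

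The strength of a peak was expressed as its percentile by -log10 p within the list of its own library, from 100 for the strongest peak down to 0 where the list held no peak. Lists ran from 29829 to 91590 peaks. In each of the 4 comparisons of same-numbered libraries, XistΔ/Δ had the longer list. A peak of a given rank stands at a higher percentile in a longer list. Values are therefore also given after each list was cut to its strongest 29829 peaks, called lists of equal length. A region was called higher in one cell type when, within each genotype, both libraries of that cell type stood above both of the other. The rule for genotype was the same within each cell type. With 2 libraries a group, the two-sided exact permutation test has 36 assignments and cannot give a p below 0.0556, and every called region had that p.

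The labels were checked against the deleted gene and against surface and lineage markers. A peak at the Xist promoter was present in 4 of 4 WT libraries and in 1 of 4 XistΔ/Δ libraries, LSK- XistΔ/Δ replicate 2, at percentile 26.9. Kit, the sorted marker of both populations, had a promoter peak at percentile 83.0 to 94.5. Ly6a, which encodes Sca-1, had a promoter peak in LSK- XistΔ/Δ replicate 1 alone, at 29.6, so its defining marker did not set LSK+ apart in these lists. Of 8 LSK+ marker promoters 0 were called higher in LSK+ and 1 (Slamf1) in LSK-. Of 8 LSK- marker promoters 1 (Gata1) was called higher in LSK-. Over the promoters of 16337 protein-coding genes with a peak, the shares were 8.53% higher in LSK- and 3.78% in LSK+. With 8 promoters a list, such counts cannot tell the markers from this background. Neither call was kept in lists of equal length, where Prtn3, an LSK- marker, was called higher in LSK+. The promoters of Cd3e, Cd4, Cd8a and Ly6g had no peak in any library, and Hbb-b1 was not matched in the annotation and not analysed here. The part of these markers in the results was not tested. In sorted pools, fewer cells of a type and less open chromatin per cell cannot be told apart.

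The sequences of 6 elements outside the promoters, chosen from the regions named below, are shown first. Each sequence is the 300 bases of GRCm38.p6 (the mm10 assembly, RefSeq), plus strand, centred on the strongest summit. Capitals mark matches, on either strand, to short motifs of PU.1, GATA, RUNX, C/EBP, AP-1, GFI1 and KLF factors, or to an ETS-IRF composite element. The first is the element in the Spi1 gene model 13 kb upstream of the start site at chr2:91082903-91083202, the strongest distal region of that window. The next pair is at Irf8, at chr8:120715338-120715637 and chr8:120792800-120793099, and were called in opposite directions between the cell types. The element at chr5:107759181-107759480 in an intron of Evi5, was the strongest distal region near Gfi1. The last are intergenic and were called between cell types near Gfi1b (chr2:28599330-28599629) and Klf4 (chr4:55488686-55488985).
Spi1, 13 kb upstream: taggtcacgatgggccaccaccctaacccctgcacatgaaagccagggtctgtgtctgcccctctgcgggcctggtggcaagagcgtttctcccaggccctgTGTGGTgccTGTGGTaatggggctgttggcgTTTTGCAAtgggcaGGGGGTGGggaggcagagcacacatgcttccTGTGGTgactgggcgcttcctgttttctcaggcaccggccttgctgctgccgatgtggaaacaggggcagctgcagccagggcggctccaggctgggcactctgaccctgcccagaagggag
Irf8, 20.9 kb upstream: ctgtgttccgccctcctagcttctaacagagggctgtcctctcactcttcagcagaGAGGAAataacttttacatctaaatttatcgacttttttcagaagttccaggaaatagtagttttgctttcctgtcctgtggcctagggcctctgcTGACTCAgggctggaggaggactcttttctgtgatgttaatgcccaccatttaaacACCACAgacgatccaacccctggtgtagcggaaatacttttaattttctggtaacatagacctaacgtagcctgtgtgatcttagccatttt
Irf8, 56.6 kb downstream: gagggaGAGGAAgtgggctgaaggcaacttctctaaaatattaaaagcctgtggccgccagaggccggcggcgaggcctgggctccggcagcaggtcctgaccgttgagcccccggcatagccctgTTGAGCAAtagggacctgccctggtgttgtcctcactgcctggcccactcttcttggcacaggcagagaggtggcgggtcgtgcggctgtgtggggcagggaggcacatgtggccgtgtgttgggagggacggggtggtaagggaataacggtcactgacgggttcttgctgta
Gfi1, 33.5 kb upstream: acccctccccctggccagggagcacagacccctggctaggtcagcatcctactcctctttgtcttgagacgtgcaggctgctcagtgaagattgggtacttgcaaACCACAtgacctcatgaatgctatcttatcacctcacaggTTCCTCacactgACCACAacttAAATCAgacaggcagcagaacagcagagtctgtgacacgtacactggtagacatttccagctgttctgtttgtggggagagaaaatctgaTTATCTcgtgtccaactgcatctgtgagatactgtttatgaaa
Gfi1b, 22.5 kb downstream: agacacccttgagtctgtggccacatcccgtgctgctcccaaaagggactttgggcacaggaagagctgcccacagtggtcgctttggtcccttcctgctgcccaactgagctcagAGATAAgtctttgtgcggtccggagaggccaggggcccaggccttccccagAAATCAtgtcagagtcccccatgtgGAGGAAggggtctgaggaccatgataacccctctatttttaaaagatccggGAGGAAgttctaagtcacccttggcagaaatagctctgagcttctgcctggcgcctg
Klf4, 43.6 kb downstream: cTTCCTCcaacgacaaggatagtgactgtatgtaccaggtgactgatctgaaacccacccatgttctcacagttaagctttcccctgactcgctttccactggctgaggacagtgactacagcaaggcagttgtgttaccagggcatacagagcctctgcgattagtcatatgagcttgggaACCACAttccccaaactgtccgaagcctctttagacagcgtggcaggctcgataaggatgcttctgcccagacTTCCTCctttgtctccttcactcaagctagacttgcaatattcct

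The Spi1 element held 3 RUNX matches, 1 C/EBP match and 1 KLF match, all within 45 bases of its summit, and no match to GAGGAA. The Gfi1 element held 1 PU.1 match 2 bases from the summit, with 2 RUNX, 1 GFI1 and 1 GATA match. The Gfi1b element held 2 PU.1 matches, 1 GATA match and 1 GFI1 match. The Irf8 element 20.9 kb upstream was the one of the 6 with an AP-1 match. Such matches are common: over all 123260 regions, windows of the same length held the motif searched for PU.1, GAGGAA, in 37.5%, the motif searched for RUNX, TGTGGT, in 30.7%, the one for GATA factors, AGATAA, in 21.4%, the one for GFI1, AAATCA, in 14.9%, the one for C/EBP, TTGCNNAA, in 13.9%, the one for KLF factors, GGGNGTGG, in 12.9%, the one for AP-1, TGANTCA, in 11.1% and the composite in 4%. Over the 107 regions the shares were 34.6%, 29.9%, 24.3%, 16.8%, 14%, 8.41%, 8.41% and 0.935% in the same order. The composite pattern may overlap the PU.1 motif, and a match in these letters is no measure of binding.

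Most of the 107 regions were distal. Promoter regions of the members, within 3 kb of their start sites, numbered 7, regions within 3 kb of the start of another gene 24, and the remaining 76 lay farther from any start. By annotation 63 summits were intronic, 31 intergenic and 13 exonic. Peaks were present in all 8 libraries at 23 regions (21.5%, against 17.3% of all regions) and in 1 library alone at 24 (22.4%, against 25.3%). The windows of Spi1, Irf8 and Gfi1b also hold start sites of other protein-coding genes, among them Psmc3, Slc39a13 and Madd near Spi1, Cox4i1 and Emc8 near Irf8, and Gtf3c5 and Tsc1 near Gfi1b. In 7 of 8 libraries the highest percentile of the Spi1 window was at the promoter of Slc39a13, a zinc transporter gene, which stood at 95.9 to 99.6, and in the other library at the promoter of Madd.

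**Figure D1:**
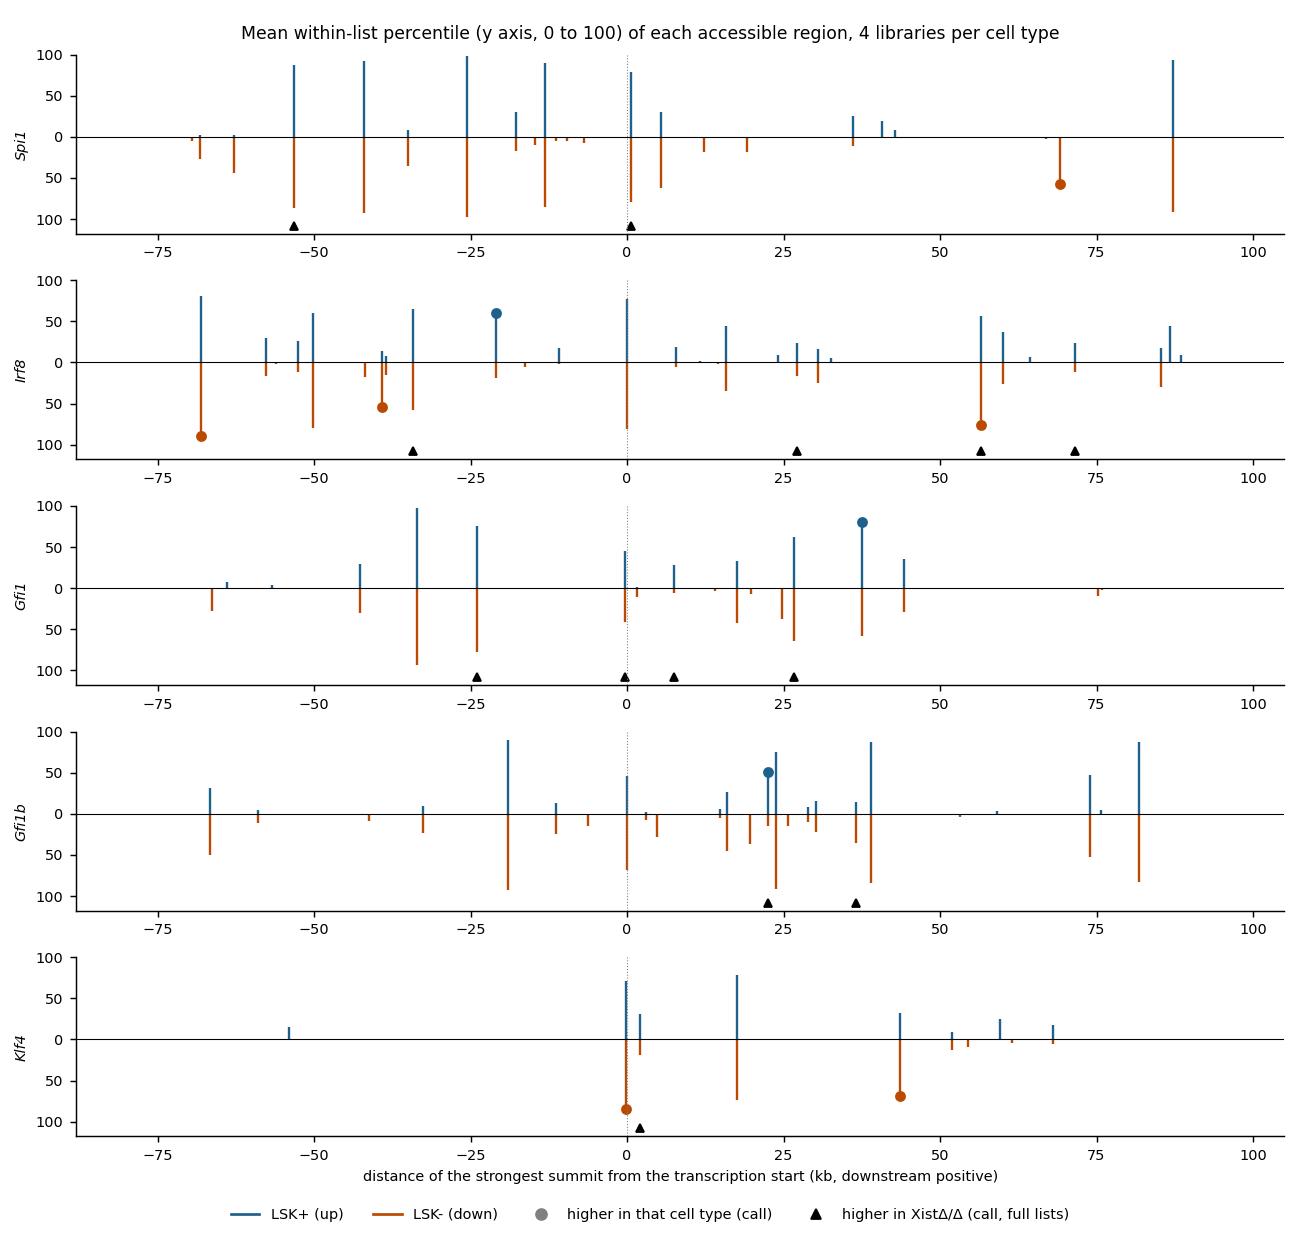
Accessible regions around each gene, with the distance of the strongest summit from the start site on the x axis (kb, downstream positive) and the mean percentile of 4 LSK+ libraries (blue, upward) and 4 LSK- libraries (orange, downward) on the y axis. Filled circles mark the 9 regions called between cell types and triangles the 13 called higher in XistΔ/Δ in the full lists, none of which was called lower.

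The Spi1 promoter was accessible in every library. Its region spanned chr2:91096295-91097360, with the strongest summit 636 bases inside the gene, in an exon. It stood at percentile 75.2 and 68.2 in LSK+ WT, at 86.8 and 85.3 in LSK+ XistΔ/Δ, at 73.2 and 71.5 in LSK- WT and at 84.6 and 85.6 in LSK- XistΔ/Δ. The cell types overlapped, with a difference (LSK- minus LSK+) of -0.147 points, and the genotypes did not overlap, with XistΔ/Δ higher by 13.6 points. In lists of equal length the genotypes did overlap, at 47.3 and 68.2 in LSK+ WT, at 63.6 and 68.8 in LSK+ XistΔ/Δ, at 36 and 64.1 in LSK- WT and at 52.8 and 69.9 in LSK- XistΔ/Δ, and no call was left.

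The upstream element of Spi1, chr2:91082664-91083621, was stronger than the promoter and was also present in every library, with summits that agreed within 25 bases. It stood at 91.3 and 83.3 in LSK+ WT, at 95.6 and 89.5 in LSK+ XistΔ/Δ, at 87.0 and 80.6 in LSK- WT and at 85.3 and 89.6 in LSK- XistΔ/Δ. Neither contrast separated, at -4.3 points between cell types (exact permutation p = 0.222) and 4.49 points between genotypes (exact permutation p = 0.222). By another measure, the fragments over the summit divided by the genome-wide background of the library, the LSK+ libraries stood at 94.3, 116, 110 and 161 and the LSK- libraries at 59.7, 69.6, 42.9 and 106. On that scale LSK+ was above LSK- within both genotypes. The 3 weaker regions nearby, 14.8, 11.4 and 9.56 kb upstream, each rested on 1 peak, always in LSK- XistΔ/Δ replicate 2.

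The Spi1 window held 1 region called between cell types, in an intron of Madd 69.1 kb downstream (chr2:91164930-91165460). It had no peak in any of the 4 LSK+ libraries and stood at 79.5 and 29.5 in LSK- WT, with 80.0 and 38.6 in LSK- XistΔ/Δ. The difference was 79.8 points between the replicate 1 libraries and 34.1 between the replicate 2 libraries. With lists cut to equal length, LSK- XistΔ/Δ replicate 2 lost the peak, and with it the call. A region in an intron of Rapsn 53.3 kb upstream stood at 77.4 to 95.9 and was higher in XistΔ/Δ by 8.17 points, a call that was lost in lists of equal length.

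Irf8 had an accessible promoter in all groups, in a region from chr8:120735960 to 120736908 with its summit 68 bases upstream of the start. It stood at 84.9 and 62.6 in LSK+ WT, at 77.4 and 85.9 in LSK+ XistΔ/Δ, at 76.0 and 76.7 in LSK- WT and at 82.8 and 87.9 in LSK- XistΔ/Δ. No group stood apart, with differences of 3.16 points between cell types (exact permutation p = 0.667) and 8.44 points between genotypes (exact permutation p = 0.222). Irf8 is known for enhancers at several distances, and regions were looked for 50 kb upstream and 41 and 56 kb downstream, within 1.5 kb. The first and the last were found, and no region lay 41 kb downstream.

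The region 56.6 kb downstream of Irf8 (chr8:120792582-120793309) was the strongest distal region of the window and was called in both contrasts. It stood at 55.0 and 14.9 in LSK+ WT, at 78.8 and 79.6 in LSK+ XistΔ/Δ, at 64.6 and 74.7 in LSK- WT and at 80.0 and 83.9 in LSK- XistΔ/Δ. LSK- was higher by 34.7 points in WT and by 2.77 points in XistΔ/Δ, and the XistΔ/Δ libraries were higher than WT by 28.3 points on average. LSK+ WT was the low group, and its replicate 2 has the shortest list. At equal list length the values were 4.42 and 14.9, 41.3 and 56.9, 15.5 and 68.2, and 38.6 and 66.3 in the same order, and neither call was kept. In those lists both LSK+ WT libraries still stood below both LSK+ XistΔ/Δ libraries, by the rule for 1 cell type only.

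The region 50.1 kb upstream of Irf8, beside the start of the noncoding gene Gm33142, stood at 75.0 to 86.8 in 7 libraries and at 6.57 in LSK+ WT replicate 2. Nearer the gene, 20.9 kb upstream (chr8:120715175-120715705) and within 3 kb of the start of the small noncoding gene Gm24239, lay the region with the largest difference among the 3 called higher in LSK+. It stood at 74.4 and 48.1 in LSK+ WT, at 72.8 and 47.4 in LSK+ XistΔ/Δ, at 25.9 and 0 in LSK- WT and at 36.1 and 13 in LSK- XistΔ/Δ. LSK+ was higher by 41.9 points, and the difference was -42.5 in the replicate 1 libraries and -41.3 in the replicate 2 libraries. The call held with fragments over background, where LSK+ lay between 28 and 33.7 and LSK- between 0 and 11.5. In lists of equal length 1 LSK+ library and all 4 LSK- libraries stood at 0, so it was not called there, nor was it when ranked by fold enrichment. A region 86.7 kb downstream, chosen here after its values were seen, stood at 63.2 and 0 in LSK+ WT and at 67.7 and 48.2 in LSK+ XistΔ/Δ, with no peak in the LSK- libraries, and the 0 kept it from a call.

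The opposite pattern was seen 39.2 kb upstream, where the libraries stood at 0 and 0 in LSK+ WT, at 14.9 and 42.3 in LSK+ XistΔ/Δ, at 53.7 and 46.8 in LSK- WT and at 63.8 and 53.6 in LSK- XistΔ/Δ. LSK- was higher by 40.2 points, but 2 of 8 libraries kept this weak region in lists of equal length. The promoter of Cox4i1, a subunit gene of mitochondrial cytochrome c oxidase 68.1 kb upstream, was higher in LSK- by 8.61 points, a call that was lost in lists of equal length, when ranked by fold enrichment and with fragments over background. Regions 34.2 kb upstream, 27.1 kb downstream and 71.5 kb downstream were called higher in XistΔ/Δ, by 16.5, 40.1 and 23.2 points. The one at 27.1 kb had no peak in any WT library, at 58.3 and 37.0 in LSK+ XistΔ/Δ and 39.2 and 26.0 in LSK- XistΔ/Δ, and it fell outside every list of equal length.

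The strongest distal element near any of the 5 genes was the one 33.5 kb upstream of Gfi1 (chr5:107759024-107759810), close to an enhancer known about 35 kb upstream of the gene that binds hematopoietic factors. It stood at 99.3 and 93.4 in LSK+ WT, at 99.7 and 95.7 in LSK+ XistΔ/Δ, at 99.0 and 87.3 in LSK- WT and at 97.3 and 91.8 in LSK- XistΔ/Δ. No contrast was called, with LSK+ higher by 3.18 points (exact permutation p = 0.389) and XistΔ/Δ higher by 1.37 points (exact permutation p = 0.667). LSK- was below LSK+ in 4 of 4 same-numbered pairs, and the fragments over background were 142 to 192 in LSK+ and 76.6 to 113 in LSK-.

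The Gfi1 promoter was far weaker than this element. Its region, chr5:107724928-107727148, also covers the start of A430072P03Rik, so the 2 promoters cannot be told apart. It stood at 44.3 and 14.7 in LSK+ WT, at 58.7 and 63.6 in LSK+ XistΔ/Δ, at 32.8 and 22.6 in LSK- WT and at 52.4 and 58.3 in LSK- XistΔ/Δ. XistΔ/Δ was higher by 29.6 points, by 17 between replicate 1 libraries and 42.3 between replicate 2 libraries. The strongest summits of the libraries lay up to 672 bases apart, so the values may not come from 1 element. The call was kept when only peaks within 250 bp of the region's strongest summit were used. Libraries without a summit that close then counted as having no peak. With lists cut to equal length, the replicate 1 libraries of all 4 groups stood at 0 and the replicate 2 libraries at 14.7, 22.9, 2.46 and 12.5, and the call was lost. By percentile the cell types overlapped, with a difference (LSK- minus LSK+) of -3.81 points. With fragments over background the LSK+ libraries stood at 33.7, 27, 37.9 and 62.4 and the LSK- libraries at 19.7, 18.1, 17.1 and 33.8. On that scale the region was called higher in LSK+ and was not called between genotypes.

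The region 23.9 kb upstream of Gfi1 (chr5:107749208-107750266, in an intron of Evi5) was the 1 member called higher in XistΔ/Δ in full lists, in lists of equal length and with fragments over background. Ranked by fold enrichment it was not called. In full lists it stood at 75.5 and 56.6 in LSK+ WT, at 85.1 and 86.2 in LSK+ XistΔ/Δ, at 77.7 and 63.3 in LSK- WT and at 85.2 and 82.8 in LSK- XistΔ/Δ. At equal list length it stood at 47.9 and 56.6, 58.8 and 70.9, 46.8 and 53.7, and 54.5 and 63.9, and XistΔ/Δ was higher by 10.8 points. Its fragments over background were 36.3 and 39.4, 44.5 and 93.6, 29.2 and 28.2, and 29.2 and 51.5. On that last scale LSK- XistΔ/Δ replicate 1 and LSK- WT replicate 1 were nearly level.

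The promoter of 5830411K02Rik, 37.5 kb downstream of Gfi1, separated the cell types most firmly among LSK+ calls. It stood at 91.7 and 63.8 in LSK+ WT, at 88.4 and 78.7 in LSK+ XistΔ/Δ, at 52.2 and 52.6 in LSK- WT and at 72.6 and 57.8 in LSK- XistΔ/Δ. LSK+ was higher by 21.8 points, and the call held in lists of equal length and with fragments over background (51.9 to 69.2 against 19.7 to 24.2). Its peaks had summits up to 339 bases apart. Regions 26.7 and 7.55 kb downstream of the Gfi1 start were higher in XistΔ/Δ by 23.6 and 26.4 points in the full lists, and neither was called in lists of equal length.

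Gfi1b, which maintains erythroid and megakaryocyte precursors, had the most variable promoter. The region chr2:28621633-28622941 stood at 57.7 and 0 in LSK+ WT, at 61.2 and 66.1 in LSK+ XistΔ/Δ, at 81.1 and 46.3 in LSK- WT and at 73.7 and 70.9 in LSK- XistΔ/Δ. LSK- was above LSK+ in 4 of 4 same-numbered pairs, by 17.9 points in replicate 1 and 25.6 in replicate 2, but LSK- WT replicate 2 lay below LSK+ WT replicate 1 and the region was not called (21.7 points, exact permutation p = 0.278). Leaving out the library at 0 does not remove this overlap.

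Downstream of Gfi1b a pair of neighbouring regions behaved differently. The region 22.5 kb downstream (chr2:28598895-28599871) stood at 42.6 and 27.7 in LSK+ WT, at 63.8 and 69.7 in LSK+ XistΔ/Δ, at 5.55 and 0 in LSK- WT and at 7.47 and 48.1 in LSK- XistΔ/Δ. LSK+ was higher by 35.7 points and XistΔ/Δ by 28.3 points. In lists of equal length 2 libraries kept a peak there, LSK+ WT replicate 2 at 27.7 and LSK+ XistΔ/Δ replicate 2 at 35.8. The region 23.7 kb downstream, chosen here after its values were seen, stood at 87.0 and 54.0 in LSK+ WT, at 84.7 and 77.1 in LSK+ XistΔ/Δ, at 95.7 and 82.4 in LSK- WT and at 97.2 and 88.5 in LSK- XistΔ/Δ. LSK- was higher there by 15.3 points and in 4 of 4 pairs, without a call in the full lists. It was called higher in LSK- in lists of equal length, when ranked by fold enrichment and with fragments over background.

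Enhancers of Gfi1b are known 13, 16 and 17 kb downstream. Regions whose strongest summit lay within 1.5 kb of the last 2 distances were found at 15.9 and 14.8 kb. No strongest summit lay within 1.5 kb of the first, though the edge of the 14.8 kb region did. Summits of that region spread over 634 bases. The one at 15.9 kb stood at 37.4 and 0 in LSK+ WT, at 40.7 and 25.9 in LSK+ XistΔ/Δ, at 44 and 22.2 in LSK- WT and at 58.4 and 54.9 in LSK- XistΔ/Δ. It was higher in LSK- in 4 of 4 pairs and was not called. The one at 14.8 kb had peaks in 3 libraries, all replicate 1, at 24.0, 0.167 and 20.7. A region 36.6 kb downstream, near the start of Gtf3c5, reached 70.8 and 70.4 in LSK- XistΔ/Δ with no peak in LSK- WT. Its values in LSK+ were 21.6 and 30 for XistΔ/Δ and 7.85 and 0 for WT. With lists cut to equal length, it remained in both LSK- XistΔ/Δ libraries, at 10.4 and 38, and in no other. The strongest distal region, 81.7 kb downstream in an intron of Ralgds, stood at 74.9 to 92.6 and was not called.

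At Klf4 the promoter and a downstream region were both higher in LSK-, and both calls held in lists of equal length. The promoter region (chr4:55532424-55533064, summit 142 bases upstream) stood at 62.8 and 69.2 in LSK+ WT, at 67.1 and 83.8 in LSK+ XistΔ/Δ, at 89.0 and 76.0 in LSK- WT and at 90.3 and 84.9 in LSK- XistΔ/Δ. The difference was 14.4 points, made up of 24.7 in replicate 1 and 4 in replicate 2. At equal list length LSK+ stood at 21, 69.2, 9.1 and 65.6 and LSK- at 73.9, 69.8, 70.4 and 68.3. With fragments over background the cell types overlapped and the promoter was not called.

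The region 43.6 kb downstream of Klf4 (chr4:55488632-55489692) stood at 26.2 and 18.5 in LSK+ WT, at 45.9 and 36.4 in LSK+ XistΔ/Δ, at 77.1 and 44.1 in LSK- WT and at 79.8 and 76.1 in LSK- XistΔ/Δ. LSK- was higher by 37.5 points, by 42.4 in replicate 1 and 32.6 in replicate 2. It was called LSK- in full lists, in lists of equal length and with fragments over background (12.1 to 18.7 in LSK+, 17.1 to 32.9 in LSK-). Its summits lay up to 708 bases apart, so the libraries may not share 1 element. The call was kept when only peaks within 250 bp of the region's strongest summit were used, with libraries lacking one counted as having no peak. A region 17.6 kb downstream was the strongest distal one, at 57 to 84.3, without a call. One in an exon of Klf4, 2.06 kb inside the gene, was higher in XistΔ/Δ by 37.3 points and lost the call in lists of equal length.

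**Figure D2:**
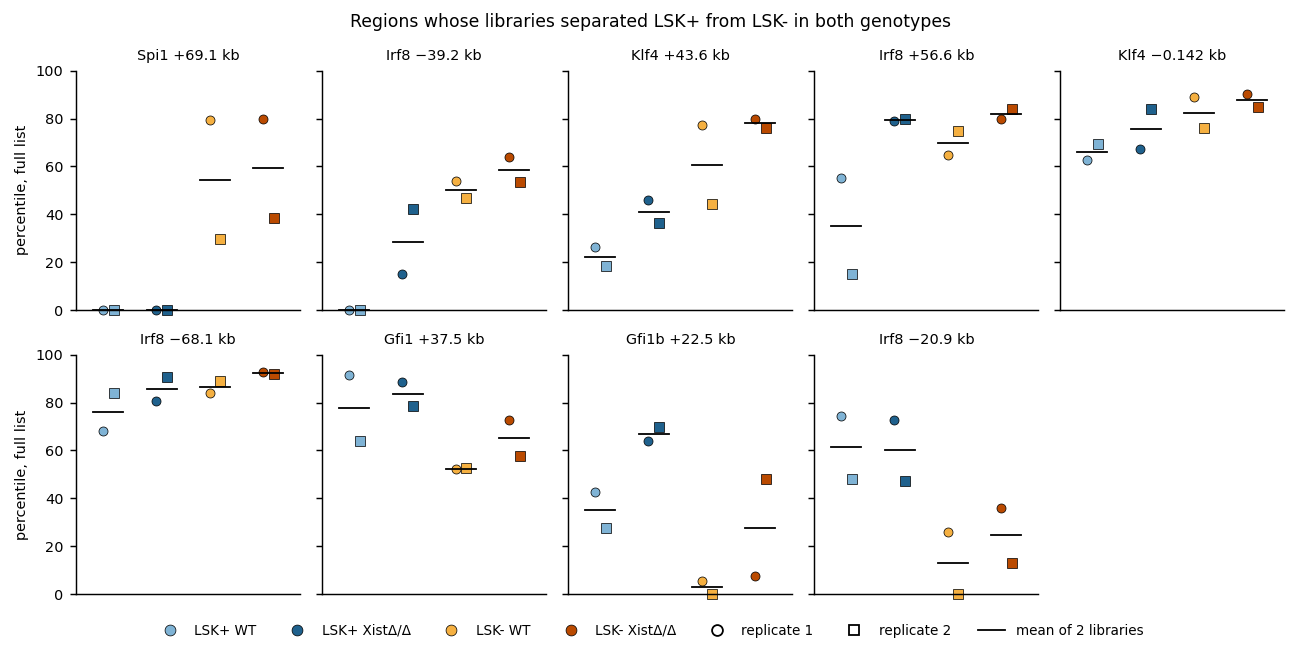
Percentile in the full list (y axis, 0 to 100) of the 9 regions called between cell types, 1 panel each, with 4 groups per panel, circles for replicate 1, squares for replicate 2 and lines for the mean of 2 libraries. The first 6 panels are higher in LSK- and the last 3, at Gfi1, Gfi1b and Irf8, are higher in LSK+.

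The promoters of the 5 genes differed in level. In LSK+ WT the means were 73.8 ± 15.8 (SD, n = 2) for Irf8, 71.7 ± 4.98 for Spi1, 66.0 ± 4.49 for Klf4, 29.5 ± 20.9 for Gfi1 and 28.8 ± 40.8 for Gfi1b. The first 3 did not differ beyond their spread, and neither did the last 2. In LSK- WT Klf4 was first at 82.5 ± 9.21, followed by Irf8 at 76.4 ± 0.465, Spi1 at 72.3 ± 1.17, Gfi1b at 63.7 ± 24.6 and Gfi1 at 27.7 ± 7.24. By percentile, Gfi1 was the lowest of the 5 in every library but LSK+ WT replicate 2. This order depended on the measure. With fragments over background, Gfi1 stood above Gfi1b in the LSK+ libraries, at 33.7, 27, 37.9 and 62.4 against 29.4, 0, 27.5 and 46.8. In the LSK- libraries Gfi1 stood below Gfi1b on both scales. In XistΔ/Δ the means of Spi1 were 86.1 ± 1.09 in LSK+ and 85.1 ± 0.705 in LSK-, and those of Gfi1 61.1 ± 3.45 and 55.3 ± 4.18.

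**Figure D3:**
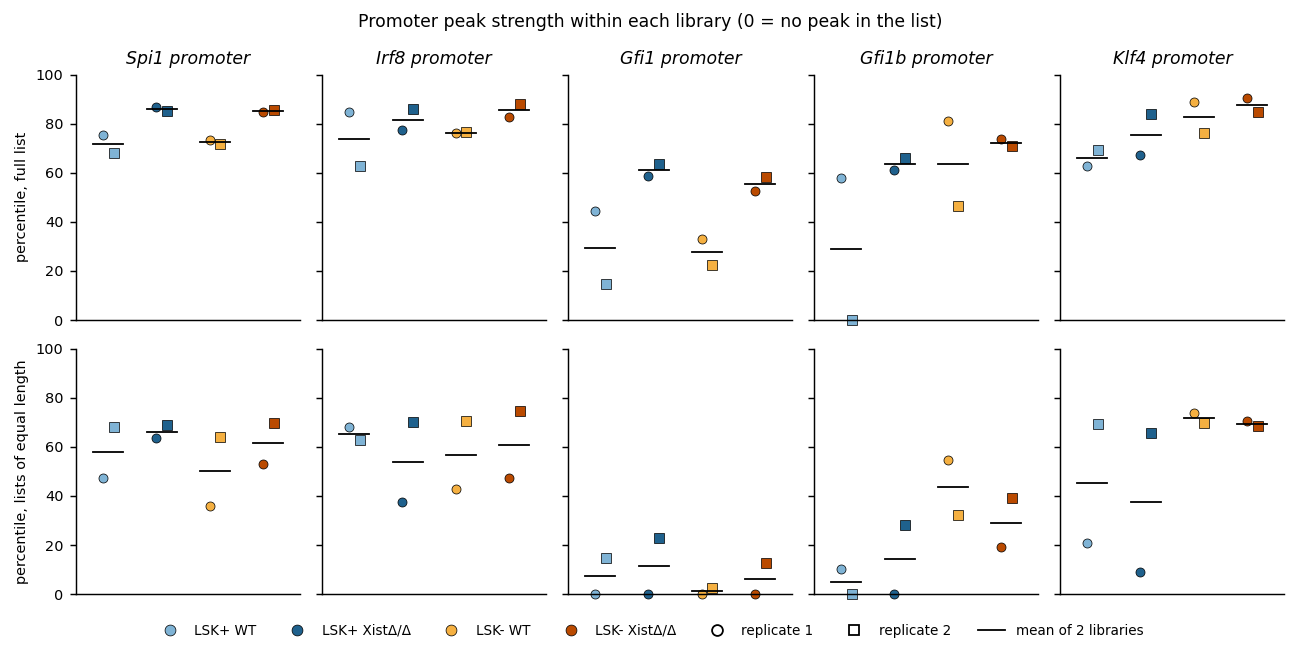
Percentile of the promoter region of each gene (y axis, 0 to 100) by group, in full lists (top) and in lists of equal length (bottom), with circles for replicate 1, squares for replicate 2 and lines for the mean of 2 libraries. In full lists XistΔ/Δ lies above WT at Spi1 and Gfi1, at 84.6 to 86.8 and 52.4 to 63.6, and in lists of equal length the genotypes overlap at all 5 promoters.

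Promoters with the most similar profiles were sought among 16337 protein-coding genes, by the mean absolute difference in percentile over the 8 libraries. For Spi1, whose promoter ranged over 18.7 points, they were Iah1, Abhd3, Ampd2, Dapk1 and Pkn3, at 1.93 to 2.4 points. For Irf8, ranging over 25.4 points, they were Gps2, Slc38a2, Gpaa1, Btbd11 and Inpp4b, at 1.92 to 2.35 points.

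Counted over the 5 windows, 6 of 107 regions were called higher in LSK- (5.61%), 1 at Spi1, 3 at Irf8 and 2 at Klf4. Over all regions the share was 5.84%. Higher in LSK+ were 3 of 107 (2.80%), 1 each at Irf8, Gfi1 and Gfi1b, against 3.01% of all regions. Both shares were close to the background. Asking only that LSK- lie above LSK+ in 4 of 4 same-numbered pairs gave 11 regions, against 9.62% of all regions, and the reverse gave 4, against 6.69%. In lists of equal length 3 were higher in LSK- (background 3.04%) and 1 in LSK+ (background 3.62%). With fragments over background the numbers turned to 3 in LSK- (background 3.49%) and 10 in LSK+ (background 7.89%), so the balance between the cell types depended on the measure.

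Between genotypes, 13 of 107 regions were called higher in XistΔ/Δ (12.1%, against 6.82% of all regions) and 0 were called lower (against 0.00487%). They were 2 regions at Spi1, 4 at Irf8, 4 at Gfi1, 2 at Gfi1b and 1 at Klf4. In 4 of 4 same-numbered pairs 22 were higher, against 16.3% of all regions, and 0 lower, against 0.0284%. With lists cut to equal length, 1 region remained, the one 23.9 kb upstream of Gfi1 (0.935%, background 0.268%), and 0 were lower (background 0.269%). Fragments over background gave 0 lower (background 0.0365%) and 3 higher (background 2.15%), at Irf8 27.1 kb downstream and Gfi1 7.55 kb downstream and 23.9 kb upstream. Over the 58 regions with a peak in at least 4 libraries, the median difference (XistΔ/Δ minus WT) was 11.6 points beside 12.7 over all 60447 such regions, and in lists of equal length both medians were 0. Genome-wide the counts were 8412 higher and 6 lower in full lists, and 330 higher and 332 lower in lists of equal length. With fragments over background they stayed one-sided, at 2645 higher and 45 lower. Percentiles within lists of the same size cannot show a general gain, and the part of list length in these counts was not tested.

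**Figure D4:**
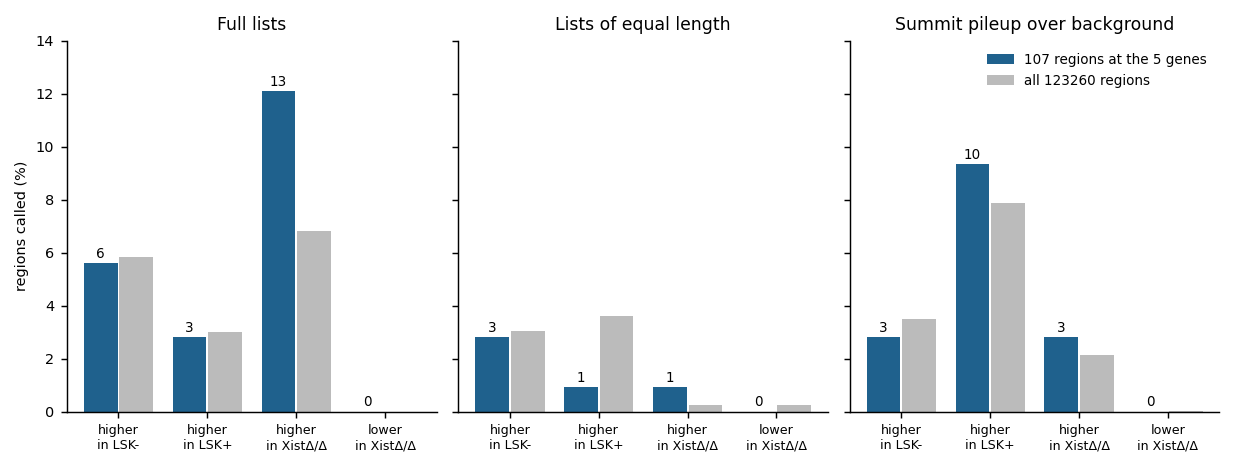
Share of regions called (y axis, percent) among the 107 regions at the 5 genes (blue, with the count above each bar) and among all 123260 regions (grey), under 3 measures. The 13 regions higher in XistΔ/Δ in full lists become 1 in lists of equal length and 3 with fragments over background.

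The number of peaks in the windows also differed between full lists and lists of equal length. Together the 5 windows held 56 and 30 peaks for LSK+ WT, 73 and 63 for LSK+ XistΔ/Δ, 62 and 37 for LSK- WT, and 82 and 70 for LSK- XistΔ/Δ. At equal list length they held 30 and 30, 26 and 27, 29 and 29, and 31 and 30. By window in full lists, XistΔ/Δ had more peaks than WT by 3.25 at Spi1, 8.25 at Irf8, 4.25 at Gfi1, 6.5 at Gfi1b and 3.5 at Klf4, with exact permutation p between 0.0556 and 0.167. LSK- had more peaks than LSK+ by 5.25 at Spi1, 2.75 at Gfi1 and 3.5 at Gfi1b, and fewer at Irf8 (-2.75) and Klf4 (-1.5), with exact permutation p between 0.111 and 0.389. After Benjamini-Hochberg adjustment over the 10 comparisons the lowest value was 0.222. In lists of equal length the difference between cell types was 2.25 at Spi1, 2.25 at Gfi1b and -2.5 at Irf8, each with an exact permutation p of 0.111.

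**Figure D5:**
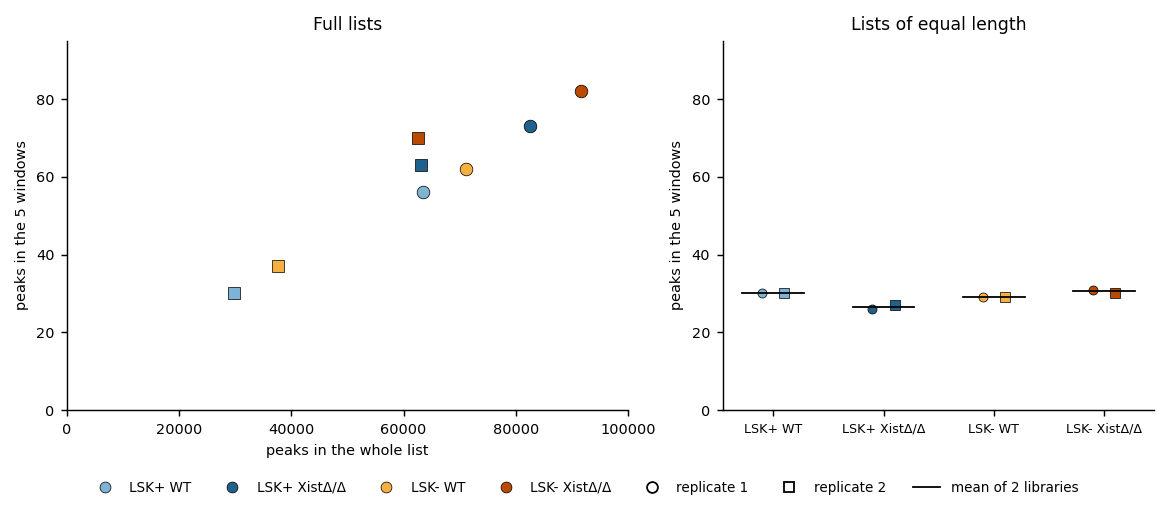
Left, peaks in the 5 windows (y axis) against peaks in the whole list (x axis) for each of 8 libraries. Right, peaks in the 5 windows after every list was cut to the same length, by group, with lines for the mean of 2 libraries. The 8 libraries run from 30 to 82 peaks on the left and from 26 to 31 on the right.

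Other genes of the same regulatory circuit were read at their promoters, from a list of 33 genes. The 32 that were matched in the annotation each had a promoter peak in at least 1 library. Over the promoters of 16337 protein-coding genes with a peak, 8.53% were called higher in LSK- and 3.78% in LSK+. Of the list, 5 were higher in LSK-, among them Gata1, the erythroid factor that opposes PU.1, Jun, an AP-1 subunit and PU.1 partner, and Kdm1a and Rcor1. Higher in LSK+ was 1, Csf1r, the macrophage growth factor receptor and a PU.1 target. Gata1 had no promoter peak in the LSK+ libraries and stood at 29.6 and 28.7 in LSK- WT, with 72.7 and 41.2 in LSK- XistΔ/Δ. Csf1r stood at 95.5 and 81.2 in LSK+ WT, at 96.6 and 90.8 in LSK+ XistΔ/Δ, at 73.4 and 80.0 in LSK- WT and at 79.6 and 85.9 in LSK- XistΔ/Δ.

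Between genotypes 8 of the 33 promoters were called higher in XistΔ/Δ (17.2% of all 16337) and 0 lower (0.0245%), and in lists of equal length 0 were called higher (0.673%) and 0 lower (0.937%). The 8 were Irf4, a relative of IRF8; Id2, an inhibitor of E proteins; Kdm1a and Rcor1; Itgam, which encodes CD11b; the granule genes Mpo and Elane; and Cx3cr1, a chemokine receptor gene of monocytes. Mpo stood at 23.3 and 29.8 in LSK+ WT, at 65.9 and 70.3 in LSK+ XistΔ/Δ, at 52.8 and 64.2 in LSK- WT and at 67.9 and 74.1 in LSK- XistΔ/Δ. Of the factors that oppose GFI1 in the macrophage fate, Egr2 stood at 82.2 to 97.0 and its co-repressor partner Nab2 at 17.6 to 71.4, and neither was called.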

How the data were processed

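Peak lists of 8 ATAC-seq libraries were analysed. The authors trimmed reads with Trim Galore, aligned them to mm10 with Bowtie2 (2.3.5.1), removed mitochondrial reads and those of mapping quality under 30 with SAMtools (1.10), and called peaks per library with MACS2 (2.2.7.1, BAMPE, q 0.01). A control, duplicate removal or a Tn5 shift for these lists was not given in the sources used here. The deposited lists give the fold enrichment over local background (a ratio), the -log10 of the p-value, the -log10 of the q-value, a score made from the latter, and the summit. They hold no read counts, so no count model was fitted. Duplicate fragments, if kept, may raise summits, and their share in each library was not tested.

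Peaks were ranked by -log10 p within each library and joined into regions. The whole-fragment pileup at each summit and its background were solved from fold and p, which succeeded for 100% of peaks. The genome-wide background was 0.482 to 3.87 fragments per library, and the 8 lists held 29829 to 91590 peaks. Python 3.11.15, NumPy 2.4.6, pandas 2.3.3, SciPy 1.17.1 and Matplotlib 3.10.9 were used, and the calls, tests and solver were tested on simulated data. Named regions were each promoter, regions at known enhancer distances, every called region and the strongest distal region. Some named genes are not reported here. The members and lists were chosen with earlier results of these data known. Replicate numbers mark 2 sequencing runs, by the run codes deposited with the files. Deviations of same-numbered libraries from their group means correlated at 0.161 to 0.464 over the 6 pairs of groups, so values for same-numbered pairs are given. Replicate 1 had the longer list in each group, and a peak of a given rank stands at a higher percentile in a longer list. The correlation therefore cannot tell a shared run from list length. Alternatives were lists of equal length, ranking by fold, summits within 250 bp, -log10 q of at least 5, the replicate block and leaving out each library. Fragments over background and the background over regions in at least 4 libraries were added after seeing the data.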

Additional observations from a re-analysis of the deposited data

How the results depend on the processing

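Lists of equal length moved the counts of called regions from 6 to 3 in LSK-, from 3 to 1 in LSK+ and from 13 to 1 in XistΔ/Δ. There the differences in peak number turned round at Spi1 (-0.75, XistΔ/Δ minus WT), Irf8 (-1, XistΔ/Δ minus WT) and Gfi1 (-0.5 for both contrasts), and came to 0 between cell types at Klf4. Of the 30 named regions, the genotype difference turned negative at 12, between -17.2 and -1.24 points, of which 1 had been called, 71.5 kb downstream of Irf8 (-1.24). The cell type difference turned negative at 3, none of them called. Fragments over background gave 3 in LSK-, 10 in LSK+ and 3 in XistΔ/Δ. With the replicate block, 11 regions were higher in LSK-, 4 in LSK+ and 22 in XistΔ/Δ in 4 of 4 pairs. The block test has 16 assignments and a smallest p of 0.125. Leaving out 1 library in turn gave 6 to 13 regions in LSK-, 3 to 14 in LSK+, 14 to 21 in XistΔ/Δ and 0 lower in XistΔ/Δ. With 1 library left in a group the rule is easier to meet. The highest values came without LSK- WT replicate 2 (13), LSK+ WT replicate 2 (14) and LSK+ WT replicate 1 (21). No difference in peak number changed sign without 1 library. Counts under ranking by fold, summits within 250 bp and -log10 q of at least 5 stayed within 1.5 times. The cause of these changes was not tested. List length and depth (0.482 to 3.87 background fragments) limit weak regions, for which no peak does not show closed chromatin.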

Other observations

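Of the 24 regions that rested on 1 library, 22 were in XistΔ/Δ libraries (91.7%), as were 87.0% of all 31241 regions found in 1 library. LSK+ XistΔ/Δ replicates 1 and 2 held 7 and 3 of them, LSK- XistΔ/Δ replicates 1 and 2 held 6 each, and LSK- WT replicate 1 held 2. Over all regions the numbers found in 1 library alone ran from 89 in LSK+ WT replicate 2 to 13084 in LSK- XistΔ/Δ replicate 1.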
